A study of Mus musculus with 8 samples.

Results

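The regions described here are 300 stretches of chromatin in dendritic cells where the peak of H3K4me3 held more tags after curdlan than in non-treated (NT) cells and fewer when FK506 was present with curdlan. They were chosen from 11507 curdlan peaks that overlapped a peak in both of the other H3K4me3 lists and held at least 200 tags, out of 14872 curdlan peaks in all. The level of a region was the number of tags in its called peak per 1000000 ChIP tags of the library (RPM). The log2 ratios of curdlan to NT and of curdlan to curdlan+FK506 were each centred on their median over the 11507 regions, and the 300 regions in which the smaller of the ratios was highest were taken, which is 2.61% of the regions. These ratios therefore define the set and are given as descriptions, without a test.

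The study asked which genes the transcription factor NFATc2 acts on in dendritic cells that meet a fungal-type glucan. D1 cells, a long-term splenic dendritic cell line from C57BL/6 mice, were left untreated (NT), exposed to curdlan at 10 μg/ml for 2 h, or exposed to curdlan for 2 h with FK506, and H3K4me3 was measured by ChIP-seq in 1 library per condition. NFATc2 carrying a V5 tag was mapped in 1 further library after 30 min of curdlan, with an antibody to the tag. Per the study's methods the ChIP cells were D1 cells that stably express the tagged NFATc2, and the labels do not say whether the H3K4me3 cells carried it. The NFATc2 sites are thus those of an introduced protein in 1 cell line, and a condition without curdlan but with FK506 was not analysed here. Each ChIP library had its own input library, and the 3 H3K4me3 libraries held 16662316 (NT), 21289349 (curdlan) and 19468498 (curdlan+FK506) tags, with 57.9%, 52.8% and 51.3% of them in called peaks. Among 12 annotated dendritic cell marker genes, 11 had an H3K4me3 peak of the required size in all 3 lists, against 1 of 6 T cell, 0 of 5 B cell and 0 of 6 fibroblast markers. Because there was 1 library per condition, no value has a replicate error, and the errors given cover counting only. More cells carrying the mark and more mark per cell cannot be told apart.

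Trimethylation of lysine 4 of histone H3 marks the start sites of active and poised genes, and the mark spreads into the gene body where transcription is strong. Curdlan, a β-glucan polymer, is bound by dectin-1, a receptor of myeloid cells that signals through a tyrosine kinase to NF-kB and, through calcium, to calcineurin. Calcineurin is the phosphatase that releases NFAT proteins into the nucleus, and FK506 inhibits it.

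NFAT proteins bind DNA with the core GGAAAA, often beside a site for AP-1, whose core is TGANTCA. The sequences under 9 NFATc2 summits inside the chosen regions are shown, since they are the places where the independent NFATc2 library meets the set. Each is the plus strand of mm9 from 40 bp before to 40 bp after a summit, with matches to GGAAAA and TGANTCA on either strand in capitals. The first 6 are those at the highest-ranked loci with a GGAAAA match outside annotated exons, Ccl3 is shown as a chemokine promoter, and the Nr4a1 and Egr3 windows are shown as ones without a match.
upstream of Msrb2, chr2:19265679-19265759: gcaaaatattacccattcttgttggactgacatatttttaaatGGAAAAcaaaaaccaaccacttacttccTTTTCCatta
Snx10 intron, chr6:51525686-51525766: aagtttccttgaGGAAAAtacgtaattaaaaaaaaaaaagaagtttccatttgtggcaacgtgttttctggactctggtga
Fndc3b intron, chr3:27506860-27506940: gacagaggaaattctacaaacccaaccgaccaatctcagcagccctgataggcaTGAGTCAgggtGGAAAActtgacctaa
upstream of Hdc, chr2:126428428-126428508: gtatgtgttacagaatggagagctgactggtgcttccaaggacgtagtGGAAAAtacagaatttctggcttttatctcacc
distal Edn1 region, chr13:42349614-42349694: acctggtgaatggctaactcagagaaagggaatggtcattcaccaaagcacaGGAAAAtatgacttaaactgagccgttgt
distal Bhlhe40 region, chr6:108659010-108659090: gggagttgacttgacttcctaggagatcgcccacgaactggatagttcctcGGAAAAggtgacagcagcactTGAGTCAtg
Ccl3 promoter, chr11:83462897-83462977: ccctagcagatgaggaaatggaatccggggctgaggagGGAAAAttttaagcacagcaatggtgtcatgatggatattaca
Nr4a1 promoter, chr15:101096897-101096977: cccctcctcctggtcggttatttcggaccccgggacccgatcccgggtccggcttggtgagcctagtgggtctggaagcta
distal Egr3 region, chr14:70461971-70462051: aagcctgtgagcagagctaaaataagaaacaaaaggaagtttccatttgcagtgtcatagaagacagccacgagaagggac

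The window upstream of Msrb2 held GGAAAA on each strand, and the Fndc3b and Bhlhe40 windows held GGAAAA together with TGANTCA. In windows of this length GGAAAA was present at 41.4% of the 111 NFATc2 summits inside chosen regions, against 28.9% of all 9438 NFATc2 summits. TGANTCA was present at 4.5% (Wilson interval 1.94 to 10.1) of these 111 summits and 11.8% (11.1 to 12.4) of all 9438. In regions not chosen it was present at 8.23% (7.02 to 9.62), an interval that overlaps that of the chosen regions. Both strings lay within 100 bp of 6.31% of the 111 summits and 8.34% of all 9438. The Fndc3b and Bhlhe40 windows are thus not typical of the set. A match is a description of the letters, and its absence from the Nr4a1 and Egr3 windows holds for these windows only.

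Over the 300 regions the median level was 17.3 RPM in NT, 26.3 after curdlan and 18.2 with FK506. The median centred log2 ratio of curdlan to NT was 0.61 (1.53-fold), with a range of 0.28 to 3.97. The median centred log2 ratio of curdlan to curdlan+FK506 was 0.41 (1.33-fold), with a range of 0.27 to 2.21. The curdlan level was thus the highest of the 3 in the typical region, and the level with FK506 was close to that in NT.

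At a threshold of 1.5-fold, 158 of the chosen regions were higher in curdlan than in NT, where 4.05% of all 11507 regions were. Against curdlan+FK506 the count was 70, with 0.704% of all regions, and both thresholds were met by 58, with 0.504% of all regions. The rule used these contrasts, so the counts only describe the set. The ratio to FK506 was the smaller in 226 regions and the ratio to NT in 74. The counting error of the log2 ratio to FK506 had a median of 0.098, and in 3 regions that ratio was under 2 counting errors.

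The level with FK506 relative to NT was not itself part of the rule, although it follows from the ratios that were. Its median centred log2 ratio was 0.15 (1.11-fold), it was below 0 in 75 regions (25%), between 0 and 1.5-fold in 174 (58%) and at least 1.5-fold in 51 (17%), where 3.97% of all regions were at least 1.5-fold higher. FK506 therefore left the regions at a wide range of levels, from under NT to most of the curdlan level.

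**Figure D1:**
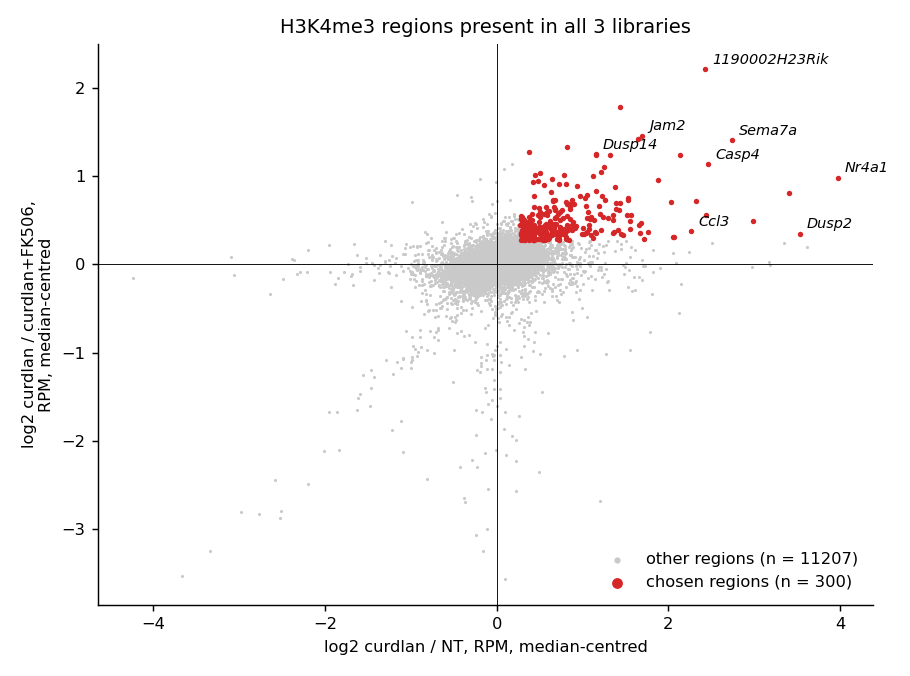
Each point is an H3K4me3 region, with the centred log2 ratio of RPM in curdlan to NT on the x axis and to curdlan+FK506 on the y axis. The 300 chosen regions (red) lie above 0.27 on both axes, with Nr4a1 farthest right at 3.97 and 1190002H23Rik highest at 2.21.

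The limit of the set falls in a dense part of the distribution. The last regions inside were near Nek6, at 0.2750, and 4931429P17Rik, at 0.2742, and the first outside were near Pitx3, at 0.2735, and Stard3, at 0.2726. In the opposite direction, 181 regions were lower in curdlan than in both other libraries by more than the same limit. Among the 10569 regions where 1 peak matched 1 peak in every list, 269 were higher and 94 lower. Both ratios share the curdlan library, so counting error in that library moves them together.

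The regions were spread over 20 chromosomes, and 246 (82.0%, 95% Wilson interval 77.3 to 85.9) had an annotated start site within 1 kb. Of the others, 24 (8.0%) lay inside a gene and 30 (10.0%) between genes. The shares over all regions were 86.4%, 5.41% and 8.18%. A protein-coding start site was within 1 kb of 238 regions, and 256 protein-coding genes had one there.

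At the start sites of protein-coding genes the 25 highest-ranked regions ran from 3.84 to 51.0 RPM in NT, from 9.49 to 100.5 after curdlan and from 4.11 to 49.1 with FK506. The region at 1190002H23Rik, now named Rgcc, a regulator of the cell cycle, held 4.02 RPM in NT, 19.5 after curdlan and 4.11 with FK506. Jam2, a junctional adhesion molecule, was at 5.16, 15.1 and 5.34 RPM in the same order. Mapk11, the β isoform of p38 MAP kinase, was at 7.50, 21.3 and 7.70. In these 3 regions the RPM with FK506, before any centring, was within counting error of that in NT, and the curdlan library stood alone.

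A further pair of regions with little left under FK506 were at Hook1, which encodes a microtubule-linked adaptor of endosomes, and Dusp14, a dual-specificity phosphatase that acts on MAP kinases. Hook1 held 26.9 RPM in NT, 54.3 after curdlan and 22.3 with FK506. Dusp14 held 20.5, 41.2 and 16.9. Tnfrsf13c, the receptor for BAFF, was at 11.4, 18.2 and 7.04, the lowest level with FK506 relative to NT among the 25, with a centred log2 ratio of -0.51. These were the 3 of the 25 in which the centred ratio of FK506 to NT was below 0.

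Other genes kept part of the higher level with FK506. Sema7a, a membrane-anchored semaphorin, held 5.10 RPM in NT, 30.8 after curdlan and 11.3 with FK506. Casp4, the inflammatory caspase that binds lipopolysaccharide, held 8.64, 43.2 and 19.1. Nr4a1, an orphan nuclear receptor induced within minutes of receptor signals, had the largest ratio of curdlan to NT of the set and went from 7.02 in NT to 99.8 after curdlan, with 49.1 under FK506. The centred ratio of FK506 to NT was at least 1.5-fold in 9 of the 25, these 3 among them.

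Csf1, the macrophage growth factor, stood at 23.5, 57.5 and 34.5 RPM in NT, curdlan and curdlan+FK506. Ch25h, which makes 25-hydroxycholesterol, stood at 39.0, 62.3 and 37.8, and Hdc, which makes histamine, at 17.8, 33.3 and 18.7. Pvrl1, the adhesion molecule nectin-1, stood at 27.7, 59.9 and 27.1, and Slamf7, a receptor of haematopoietic cells, at 8.70, 22.8 and 13.4. Slc44a1, a choline transporter, stood at 3.84, 17.4 and 10.3, and Fam107b at 51.0, 100.5 and 49.0. Nudt17, Olfr111, Rsad2, Ust, Sh3bp5, Stau2, Myo1d and Pacsin1 were also among the 25. The curdlan peak was longer than the NT peak in all 25 and longer than the FK506 peak in 24, and 11 overlapped an NFATc2 peak.

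**Figure D2:**
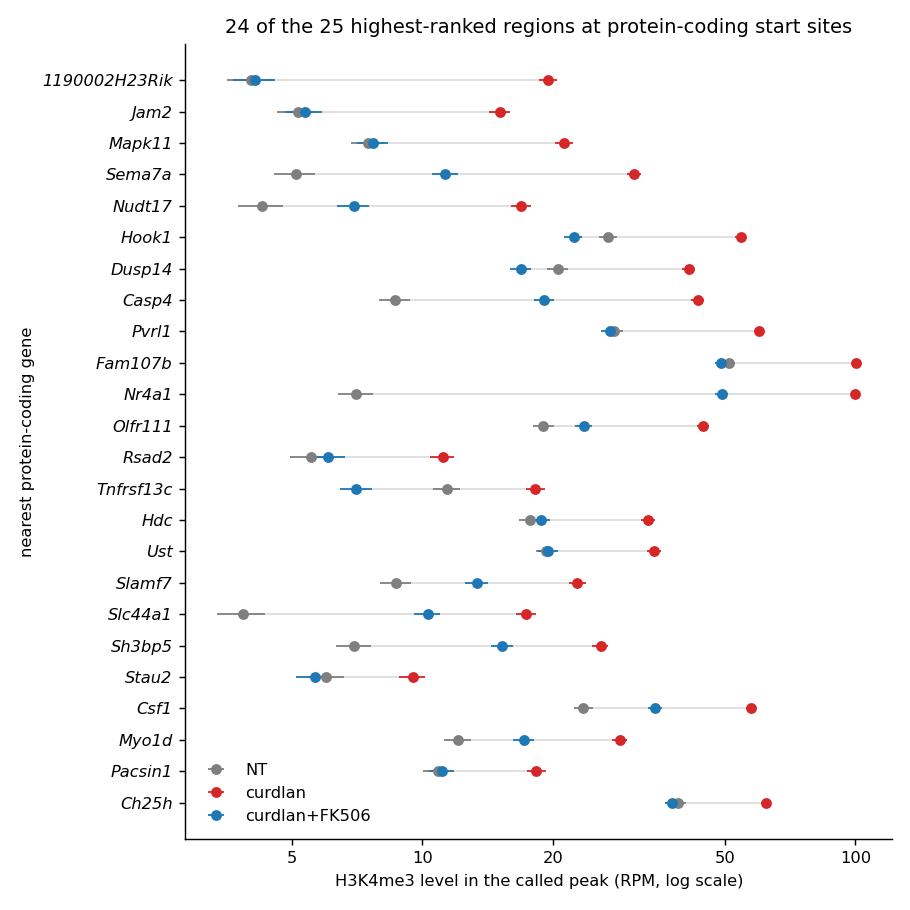
Points give the level of 24 of the 25 highest-ranked regions at protein-coding start sites in NT (grey), curdlan (red) and curdlan+FK506 (blue), in RPM on a log axis, with bars for the counting error of the tag number. The curdlan point is rightmost in every row, and the blue point ranges from left of the grey one (Hook1, Dusp14, Tnfrsf13c) to well right of it (Nr4a1, Slc44a1).

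Several loci held more than 1 chosen region: 9 protein-coding genes were the nearest gene of at least 2, and Nr4a1 and Rasgef1b of 3. Upstream of Nr4a1, a region whose near edge was 8385 bp from the start site held 3.84 RPM in NT, 36.9 after curdlan and 20.5 with FK506. Another Nr4a1 region, 18945 bp upstream, held 8.52, 10.0 and 4.01. The promoter and the nearer region were thus alike in their order, and the farther one differed mainly between curdlan and FK506. At the farther region the called peak was 2638 bp long with curdlan and 1065 bp with FK506. Its centred log2 ratio of curdlan to FK506 was -0.004 per kb of peak and -0.71 on fold enrichment, so this difference rests on peak length. Each of the 3 overlapped an NFATc2 peak, of 45, 80 and 46 tags.

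Edn1, which encodes the peptide endothelin-1, had a chosen region at its promoter and another 43676 bp away. The promoter held 97.1 RPM in NT, 130.4 after curdlan and 80.7 with FK506. The distal region held 18.2, 28.4 and 13.6 and overlapped 2 NFATc2 peaks, the taller with 381 tags, while the promoter overlapped none. The centred log2 ratio of FK506 to NT was -0.08 at the promoter and -0.24 at the distal region.

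Rasgef1b, a Ras exchange factor, had a promoter region at 97.2, 175.6 and 134.9 RPM in NT, curdlan and curdlan+FK506. A region 13537 bp from its start site held 8.64, 12.9 and 10.3, and one 84877 bp away held 24.4, 48.2 and 33.1. Nr4a2, the paralogue of Nr4a1, had a promoter region of 174.5, 192.3 and 147.8, and a second region 51327 bp away at 6.06, 11.7 and 7.86. FK506 was above NT in the 3 Rasgef1b regions and the distal Nr4a2 region, and below NT at the Nr4a2 promoter.

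Between genes, the region closest to Egr3, a zinc finger factor induced through calcineurin, lay 10374 bp from its start site and held 25.1 RPM in NT, 37.6 after curdlan and 19.4 with FK506. The region near Ier3, an early-response gene, lay 5081 bp from its start and held 12.5, 17.6 and 9.66. The region near Bhlhe40, a helix-loop-helix repressor, lay 47441 bp away and held 12.8, 23.7 and 13.7. All 3 overlapped NFATc2 peaks. The nearest gene is a matter of distance only.

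The extent of the mark differed along with its level. The median curdlan peak of the set was 3257.5 bp long, against 2392.5 bp in NT and 2624 bp with FK506, where the medians over all regions were 2918, 2827 and 2885 bp. The curdlan peak was longer than both others in 260 regions (86.7%), against 43.6% of all regions. A longer called peak gathers more tags, so length is not independent of the rule.

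Around the 238 protein-coding start sites the added length lay on the gene side. The curdlan peak reached a median of 510 bp farther downstream than the NT peak and 81 bp farther upstream, and the downstream gain was the larger in 199 (83.6%), against 56.6% of the regions not chosen. At 2 kb downstream of the start site, 34.0% of the NT peaks, 65.5% of the curdlan peaks and 47.5% of the FK506 peaks covered the position. At 1 kb upstream the shares were 52.1%, 64.7% and 52.5%, and at 2 kb upstream 12.6%, 14.7% and 13.9%. The FK506 share thus lay between NT and curdlan at 2 kb downstream and close to NT at 1 kb upstream.

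For comparison, 300 other regions were taken in which curdlan and curdlan+FK506 were both highest over NT, by the same kind of rule. At 246 protein-coding start sites of that set the downstream gain over NT was the larger in 86.6%, with a median of 884.5 bp, so that the gain on the gene side was not particular to the chosen regions. There 47.2% of NT, 78.9% of curdlan and 76.0% of FK506 peaks covered the position 2 kb downstream. The curdlan and FK506 libraries nearly coincided, as their selection would make them.

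**Figure D3:**
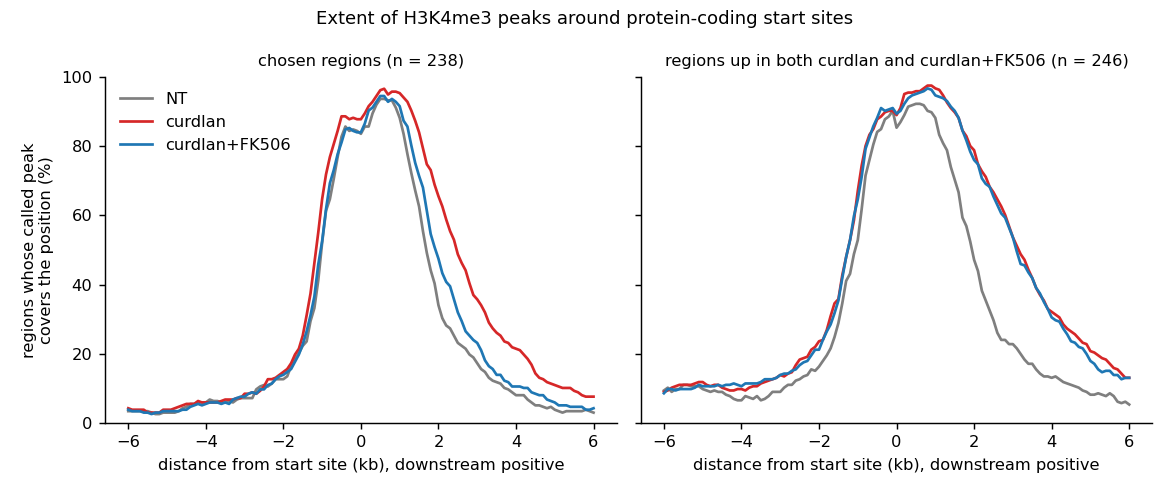
Lines give the share of regions whose called peak covers each position from 6 kb upstream to 6 kb downstream of a protein-coding start site, for NT (grey), curdlan (red) and curdlan+FK506 (blue). In the chosen regions (left) the curdlan line stands out downstream, at 65.5% against 34.0% and 47.5% at 2 kb, and in regions up in both treatments (right) the blue line runs with the red one.

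The set depends on how the level of a peak is measured. On RPM per kb of peak, 226 of the 300 regions (75.3%) were still above the centre of all regions for both ratios, where 31.8% of all regions were, and the median centred log2 ratios were 0.34 to NT and 0.24 to FK506. On the fold enrichment over input, 163 (54.3%) were, against 34.0% of all regions, with medians of 0.25 and 0.24. Choosing 300 regions anew found 117 of the same regions by tags per kb and 24 by fold enrichment. On length alone, 247 (82.3%) were above the centre for both ratios, against 32.3% of all regions, with medians of 0.32 and 0.23. Among named genes, the regions at Hdc (-0.11 to NT and -0.30 to FK506) and Egr2 (-0.22 and -0.41) lay below the centre for both ratios per kb.

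NFATc2 binding was measured in a separate library and took no part in the choice. An NFATc2 peak overlapped 103 of the 300 regions (34.3%, 29.2 to 39.9), against 15.4% of all 11507 regions and 14.9% (14.3 to 15.6) of the 11207 not chosen. The share was 41% in the first 100 regions by rank, 38% in the next 100 and 24% (16.7 to 33.2) in the last 100. The 300 regions ranked just outside the set overlapped an NFATc2 peak in 28.3% (23.5 to 33.7). That interval overlaps those of the last 100 regions and of the whole set, so the share did not change beyond counting error at the limit of the set. The tallest NFATc2 peak in a region had a median of 109 tags in the set and 79 tags elsewhere. The intervals cover counting error only, and the regions are not replicates of a condition.

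Longer H3K4me3 peaks have more room for an NFATc2 peak, so the shares were compared within 4 classes of length that hold equal numbers of all regions. In the longest class, from 3879 bp, 62 of 104 chosen regions (59.6%, 50.01 to 68.5) overlapped an NFATc2 peak, against 28.8% of the others. From 2918 to 3879 bp the shares were 35.7% (25.5 to 47.4) and 14.6%, from 2305 to 2918 bp 16.9% (9.72 to 27.8) and 9.50%, and below that 8.20% (3.55 to 17.8) and 6.96%. The difference was thus beyond counting error in the 2 longer classes and not detectable at this number in the 2 shorter ones. Among regions between genes, 20 of 30 overlapped an NFATc2 peak (66.7%, 48.8 to 80.8), against 22.5% of the others between genes. With a start site within 1 kb the shares were 30.1% (24.7 to 36.1) and 13.6%. Inside a gene they were 37.5% (21.2 to 57.3) and 25.2% (21.9 to 28.8), with intervals that overlap. In the regions up in both treatments 7 of 24 between genes overlapped an NFATc2 peak (29.2%, 14.9 to 49.2). Near start sites 64 of 252 did (25.4%, 20.4 to 31.1), and inside a gene 13 of 24 did (54.2%, 35.1 to 72.1). Each of these intervals overlaps that of the chosen regions of the same location.

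The 300 regions that were up in both treatments overlapped NFATc2 peaks in 28.0% (23.2 to 33.3), an interval that overlaps that of the chosen regions. In the longest class their share was 36.9% (30.0 to 44.4), below the interval of the chosen regions. Within the chosen set, regions lower with FK506 than in NT overlapped NFATc2 in 36% and regions at least 1.5-fold above NT in 41.2%, which do not differ beyond counting error. When fold enrichment was used to choose, the share was 11%, below the 15.5% of the rest, and when tags per kb were used it was 23% against 15.2%.

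**Figure D4:**
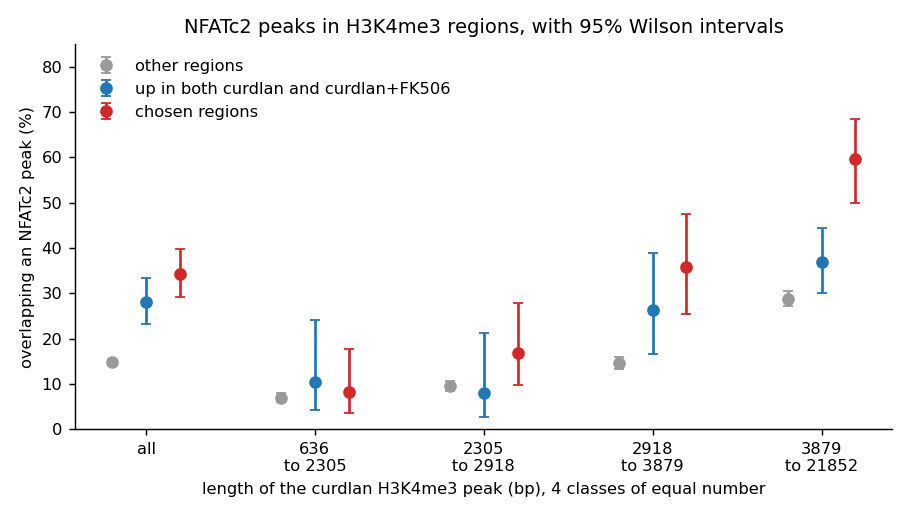
Points give the percent of regions that overlap an NFATc2 peak, with 95% Wilson intervals, over all regions and by class of length of the curdlan H3K4me3 peak. The chosen regions (red) reach 59.6% in the longest class, the regions up in both treatments (blue) 36.9% and the other regions (grey) 28.8%.

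Of the 10 chosen regions with the most NFATc2 tags, 3 were at chemokine promoters, Ccl4 with 491 tags, Ccl12 with 462 and Ccl3 with 400. The others were near Rasgef1b (423), Ier3 (414), Plk3 (410), Nek6 (382), Edn1 (381), Spry1 (363) and Synpo (361). Only Plk3, a polo-like kinase, and Synpo were at a start site among these 7. At protein-coding start sites, 70 chosen regions had an NFATc2 peak, and its summit lay within 1 kb of the start site in 34, more than 1 kb downstream in 26 and more than 1 kb upstream in 10. These shares were 48.6%, 37.1% and 14.3%, against 53.5%, 30.3% and 16.2% in the regions not chosen. In the regions up in both treatments they were 53.2%, 33.9% and 12.9%, and the differences were not tested.

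The sequence under the NFATc2 summits was also outside the rule. GGAAAA was found within 100 bp of 69 of the 111 summits inside chosen regions (62.2%, 52.9 to 70.6), of 47.5% (45.1 to 49.9) of the 1714 summits in the other regions and of 45.6% of all NFATc2 summits. In windows of the same length 1 kb to each side of the summits in chosen regions it was found in 16.2%. In regions up in both treatments the share was 41.5% (32.1 to 51.6) of 94 summits. The chosen regions thus held the NFAT core within 100 bp of their NFATc2 summits more often than either comparison set, with intervals that do not overlap. The other regions include those up in both treatments. Within 250 bp the interval of the chosen regions (67.9 to 83.5) overlapped that of regions up in both treatments (49.5 to 68.9). For NFATc2 peaks with p of 1e-10 or less the share in chosen regions was 62.5% (51.6 to 72.3). It was 49.3% (46.0 to 52.6) in the other regions and 41.1% (29.2 to 54.1) in regions up in both treatments. The interval of the chosen regions overlaps both of these.

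The AP-1 core TGANTCA was within 100 bp of 16.2% of the summits in chosen regions, 16.9% of those in other regions and 19.1% of those in regions up in both treatments. GGGA followed after 4 bases by CC, a string found in many NF-kB sites, was within 100 bp of 9.01% (4.97 to 15.8), 11.8% (10.4 to 13.5) and 21.3% (14.2 to 30.6). All motifs were searched on both strands. Matches of different strings may share bases and were counted separately. For AP-1 the intervals of the 3 sets overlapped. For the NF-kB string the interval of the chosen regions overlapped those of both comparison sets. The intervals of the other regions and of the regions up in both treatments did not overlap.

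Gene lists show which parts of the response the chosen regions took in. Of 49 cytokine and chemokine genes of interest in the study, 18 had a region of the required size at a start site, and 7 of these (38.9%) were at chosen regions, where 2.61% of all regions were chosen. The list follows the interest of the study, so this count is not independent evidence. In all lists a gene counted if any region at its start sites was chosen, while the background counts regions. Ccl3 and Ccl4, inflammatory chemokines, held 10.7, 46.5 and 34.8, and 18.1, 55.6 and 41.7 RPM in NT, curdlan and curdlan+FK506. Ccl17, a ligand of CCR4, held 26.1, 60.9 and 46.0, Clcf1, a cytokine of the IL-6 family, held 29.5, 62.2 and 46.1, and Ccl12, a ligand of CCR2, held 9.30, 13.4 and 9.76. Csf1 and Edn1 complete the 7. At Ccl3, Ccl4, Ccl17 and Clcf1 most of the curdlan level was kept with FK506, with centred log2 ratios of curdlan to FK506 of 0.37 to 0.39.

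Chosen regions missed other members of the list. Cxcl2, a neutrophil chemokine, had a centred log2 ratio of 2.06 to NT and 0.13 to FK506, and Cxcl16 had 1.81 and -0.34. Tnf had -0.34 and -0.17. Il2 and Il12b had no H3K4me3 peak at a start site in any of the 3 lists, and Il23a had one in curdlan and curdlan+FK506 and none in NT, so that none of these genes could enter the set. Absence here means only that no peak was called within 1 kb of a start site. The paper reports a gain of the mark at Il2, Il12b and Il23a after curdlan, lowered by FK506, from ChIP-PCR and ChIP-seq.

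Of 27 immediate early transcription factor genes with a region, 4 (14.8%) were at chosen regions, where 2.61% of all regions were chosen. Egr1 held 46.2 RPM in NT, 111.2 after curdlan and 82.2 with FK506, and Egr2 105.2, 140.2 and 112.6. Both encode zinc finger factors, and with Nr4a1 and Nr4a2, given above, they make up the 4. Over the 27 genes the median centred log2 ratio was 0.38 to NT and 0.02 to FK506.

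The inhibitors of signalling gave 3 of 26, namely Dusp2, Dusp14 and Socs5, beside the 2.61% of all regions that were chosen. Dusp2, a nuclear phosphatase of MAP kinases, held 4.08, 42.7 and 32.6 RPM in NT, curdlan and curdlan+FK506, so that most of the curdlan level was kept with FK506. Socs5, a suppressor of cytokine signalling, held 73.1, 93.8 and 68.5 at its promoter, with a second chosen region at 34.7, 75.2 and 43.9. Of 18 interferon-stimulated genes 3 were at chosen regions, Rsad2 (5.52, 11.1 and 6.06), Ifih1 (59.0, 76.5 and 58.2) and Ifit1 (38.8, 46.0 and 35.6). Tnfrsf9, the costimulatory receptor 4-1BB, was the 1 of 14 costimulation genes, at 5.04, 15.0 and 11.9. A count of 1 in 14 is close to that background.

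Of 18 genes for NF-kB subunits and inhibitors, 9 were at least 1.5-fold higher in curdlan than in NT, 0 were at least 1.5-fold higher in curdlan than with FK506, and 0 were at chosen regions. Over all regions the shares were 4.05%, 0.704% and 2.61%, so that counts of 0 among 18 genes are near the background and only the first count stands above it. Their median centred log2 ratios were 0.58 to NT and 0.03 to FK506. Tnfaip3, the inhibitor A20, had 1.73 and -0.02, Nfkb1 had 1.25 and 0.14, and Nfkbia, the inhibitor IκBα, had 0.94 and 0.03. The difference in share from the cytokine list is one of counts, and it was not tested.

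Genes of the NFAT, calcineurin and calcium entry list gave 2 of 23, Nfat5 (23.05, 31.8 and 25.1 RPM in NT, curdlan and curdlan+FK506) and Nfatc2ip (20.8, 23.6 and 18.6), with list medians of 0.01 to NT and 0.02 to FK506. Dectin-1 signalling (16 genes with a region), eicosanoid and inflammasome genes (13), glycolysis and hypoxia genes (20), housekeeping genes (14) and dendritic cell markers (11) gave 0. Over all regions 2.61% were chosen, so a count of 0 in lists of this size is near the background. The median ratios to FK506 in these 5 lists lay between -0.09 and -0.02. Actb, a housekeeping gene, had centred log2 ratios of 0.00 to NT and -0.19 to FK506, and Sox2, a stem cell gene, had no peak.

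**Figure D5:**
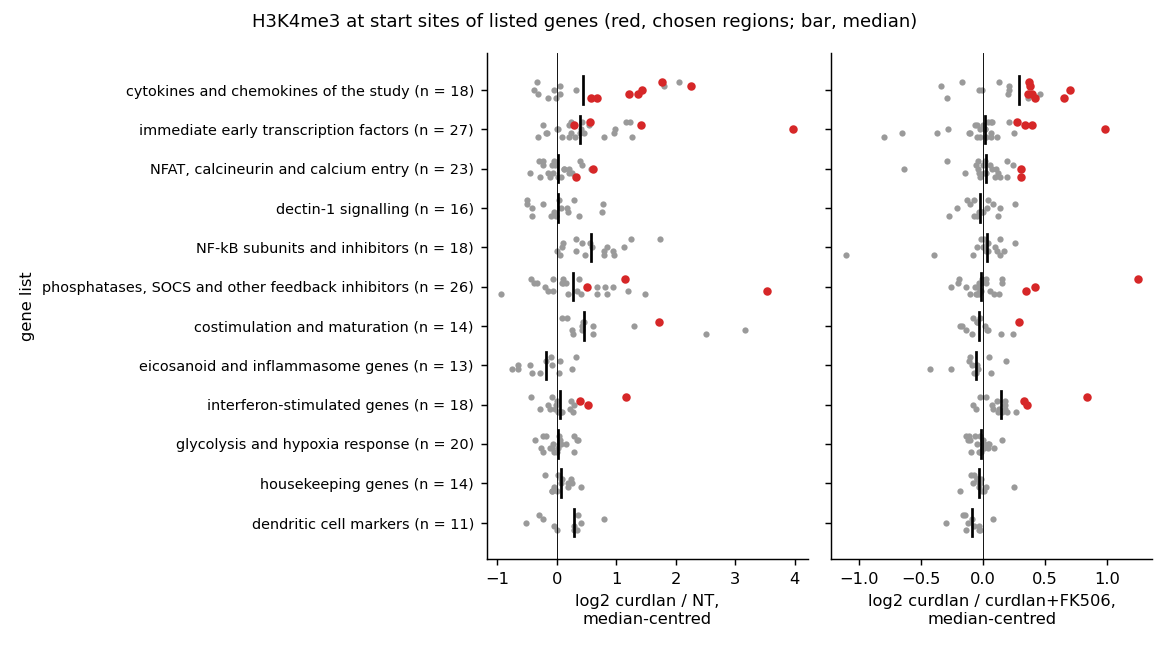
Points give the centred log2 ratio of H3K4me3 RPM at the start sites of listed genes, curdlan to NT on the left and curdlan to curdlan+FK506 on the right, with chosen regions in red and list medians as bars. The NF-kB bar lies at 0.58 on the left and 0.03 on the right, and the cytokine bar at 0.44 and 0.29.

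The start sites in chosen regions were mostly rich in CpG, as were others: the ratio of observed to expected CpG within 500 bp of the start site was 0.6 or more at 75.6% (69.8 to 80.6) of the 238 protein-coding start sites in chosen regions, at 77.4% of those in other regions and at 66.7% (60.6 to 72.3) in regions up in both treatments. The chosen regions did not differ from the others in this beyond counting error.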

How the data were processed

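Peak lists of 3 H3K4me3 libraries and 1 NFATc2-V5 library were used. Reads had been aligned by the authors to mm9 (bowtie), and MACS, version 1.4.2 in the file headers, had called peaks for every library over its input at p of 1e-05. The deposited tags are raw counts per peak. The authors' files also give the fold enrichment, a ratio to the local background, the FDR in percent, and the p-value as a score, −log10 p multiplied by 10. Start, end and summit coordinates are 1-based.

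Levels were tags per 1000000 header ChIP tags (RPM), summed over the NT or FK506 peaks that overlapped a curdlan peak by at least 1 bp. The subtracted medians of the log2 ratios were -0.15 (curdlan to NT) and 0.04 (curdlan to curdlan+FK506). Start sites came from the Ensembl 65 annotation of NCBI build 37, and 2 dectin-1 signalling genes and 1 marker were not analysed here. Named genes were the 25 highest-ranked at protein-coding start sites, listed genes at chosen regions, those at the limit, a few genes of the study, and the 10 regions with most NFATc2 tags, and 1 of the 25 is not reported here. Members and lists were chosen with earlier results of these data known, and the set of regions up in both treatments after seeing the data. Wilson intervals (95%) were computed with scipy 1.17.1 and sequences read with pysam 0.24.0 in Python 3.11.15. Overlap and ranking steps were tested on simulated peaks. With 1 library per condition no p-value was computed. Alternatives covered the thresholds, the overlap, the measure, the minimum of tags, the centring and the number of regions.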

Additional observations from a re-analysis of the deposited data

How the results depend on the processing

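No paired analysis was possible because each condition had 1 library. The median centred log2 ratios stayed above 0 under every alternative run, which the rule ensures. Under 6 of 11 alternatives at least 200 of the 300 regions were found again. The choice of 600 regions, among these 6, holds all 300 by construction, and the choice of 100 could not reach 200. The limits come from the peak lists: a region needed a peak in all 3 libraries, so genes without a peak in NT, such as Il23a, were left out, and called peaks differ in length between libraries. Depth limits the counts in the shortest regions.

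The median ratio to NT (0.61) became 0.45 by tags per kb, 1.07 by fold enrichment, 0.75 with the peak of most tags in place of the sum, 0.49 with at least 500 tags, 0.96 for 100 regions and 0.44 for 600. The median ratio to FK506 (0.41) became 0.36, 1.09, 0.60, 0.33, 0.66 and 0.31 under the same settings, 0.38 with at least 50% of the curdlan peak covered, 0.46 with at least 100 tags and 0.39 with centring within deciles of level. The regions found again numbered 117, 24, 175, 164 and 100 under the first 5 settings, and 100 is the most that a choice of 100 regions can give.

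The share overlapping NFATc2 (34.3%) was 23% by tags per kb, 11% by fold enrichment, 44.3% with at least 500 tags, 41% for 100 regions, 26.3% with NFATc2 peaks at 1e-10 and 64.3% with a summit within 20 kb. The ratio of that share to the share in the regions not chosen was 2.30 and ran from 0.708 (fold enrichment) to 3.37 (NFATc2 peaks at 1e-10) over 14 alternatives. The share at a start site (82.0%) was 90% with at least 500 tags, 77% for 100 regions and 68.7% with the start site inside the peak. GGAAAA (62.2%) was within 50 bp of 46.8% and within 250 bp of 76.6% of the summits, where the other regions had 34.9% and 61.9%. The cause of these shifts was not tested.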

Other observations

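Calcium pumps and lectin receptors were picked out after the values were seen. Of 9 annotated calcium pump genes of the Atp2a, Atp2b and Atp2c families, 5 had an H3K4me3 region of the required size at a start site and 3 of these were at chosen regions, where 2.61% of all regions were chosen. The family was picked because of these values, so the count supports nothing. Atp2b1, a pump of the plasma membrane, held 43.4 RPM in NT, 63.0 after curdlan and 39.9 with FK506. Atp2a3 held 72.0, 108.3 and 78.8, and Atp2a2 held 83.5, 114.5 and 90.4, and both are pumps of the endoplasmic reticulum. The other 2, Atp2b4 and Atp2c1, had centred log2 ratios of 0.14 and -0.02 to NT and of 0.35 and -0.96 to FK506. None of the 3 pump regions overlapped an NFATc2 peak.

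Clec4e, the lectin receptor Mincle, held 24.2, 33.7 and 23.3 RPM in NT, curdlan and curdlan+FK506 and overlapped an NFATc2 peak of 125 tags. Clec12a, an inhibitory lectin receptor, held 37.3, 41.5 and 29.4 and overlapped an NFATc2 peak of 166 tags. The lectin genes were taken from the chosen regions only, and those with a region that was not chosen were not counted. Far from any protein-coding start site, a region 292427 bp from Eea1 held 7.02, 50.2 and 34.6 and overlapped an NFATc2 peak of 281 tags.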
